A study of Homo sapiens with 3 samples.

Results

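POU genes encode transcription factors with a bipartite DNA-binding region, the POU domain, and 10 of them that belong to classes known from neural tissue are described here by level in primitive neural progenitor cells (pNPCs). They were taken by symbol from 62754 genes and comprise 2 genes of class II (POU2F1 and POU2F2), 4 of class III (POU3F1, POU3F2, POU3F3 and POU3F4), 3 of class IV (POU4F1, POU4F2 and POU4F3) and POU6F1 of class VI. All 10 were found. The cells, wild type and at an early stage of neural development, were made from H1, an established human embryonic stem cell line, and their polyadenylated RNA was sequenced. The work concerns chimeric brains in which human neurons, macroglia and microglia meet, and has 1 group of 3 replicates from 1 line and no contrasting condition. The cells were kept in a medium with N2, B27-RA, 20 ng/ml FGF2, 10 ng/ml leukemia inhibitory factor, the GSK3 inhibitor CHIR99021 at 3 µM, the TGF-beta receptor inhibitor SB431542 at 2 µM and the ROCK inhibitor Y-27632 at 10 µM.

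In the POU domain, a POU-specific part and a POU homeodomain are joined by a flexible linker, and both parts contact DNA, classically at the octamer ATGCAAAT. Class III factors often bind beside SOX factors at enhancers of neural progenitor genes and also act in young neurons, in the hypothalamus and in Schwann cells. Class IV factors mark sensory neurons, retinal ganglion cells and inner ear hair cells as they mature, whereas class II factors serve in many cell types and in B lymphocytes.

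The 4 class III genes led the members by summed TPM, though not by counts in every library. The DNA just upstream of their RefSeq starts is therefore shown to let the genes be compared. RefSeq windows of GRCh38.p14 were matched for 10 of 10 members, and the 250 bases before the start are printed 5′ to 3′ on the gene's own strand, with each CCAAT box (CCAAT, or ATTGG where it lies on the other strand) in capitals. The windows are chr1:38046794-38047043 on the minus strand for POU3F1, chr6:98834324-98834573 on the plus strand for POU3F2, chr2:104853865-104854114 on the plus strand for POU3F3 and chrX:83508040-83508289 on the plus strand for POU3F4. These RefSeq starts are not always the GENCODE 29 gene starts given below. The POU3F3 window ends at 104854114, upstream of the GENCODE 29 start at 104855511. That of POU3F4 ends at 83508289, past the GENCODE 29 start at 83508261.
POU3F1: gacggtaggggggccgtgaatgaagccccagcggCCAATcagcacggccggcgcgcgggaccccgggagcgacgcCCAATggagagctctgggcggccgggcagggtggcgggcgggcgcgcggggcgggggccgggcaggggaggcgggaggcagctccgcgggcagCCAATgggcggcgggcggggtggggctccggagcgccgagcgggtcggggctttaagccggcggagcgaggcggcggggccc
POU3F2: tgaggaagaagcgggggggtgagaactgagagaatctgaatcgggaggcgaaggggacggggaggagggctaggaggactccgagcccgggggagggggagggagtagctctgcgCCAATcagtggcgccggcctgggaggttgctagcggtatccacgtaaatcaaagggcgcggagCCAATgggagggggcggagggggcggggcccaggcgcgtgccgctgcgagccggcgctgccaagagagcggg
POU3F3: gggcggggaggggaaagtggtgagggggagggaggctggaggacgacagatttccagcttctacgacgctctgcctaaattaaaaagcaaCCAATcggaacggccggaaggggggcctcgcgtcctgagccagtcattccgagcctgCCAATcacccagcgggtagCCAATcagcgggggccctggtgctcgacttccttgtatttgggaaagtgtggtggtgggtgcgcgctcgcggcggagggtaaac
POU3F4: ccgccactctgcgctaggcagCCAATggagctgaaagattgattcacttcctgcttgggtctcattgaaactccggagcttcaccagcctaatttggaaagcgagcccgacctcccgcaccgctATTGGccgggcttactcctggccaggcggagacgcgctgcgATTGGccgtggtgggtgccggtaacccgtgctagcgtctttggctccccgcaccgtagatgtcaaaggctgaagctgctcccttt
CCAAT was searched on both strands and its matches do not overlap. POU3F1 had 3 matches (at -216, -175 and -82, counted from the start to the first base of the match), POU3F2 had 2 (-135 and -72), POU3F3 had 3 (-160, -103 and -84) and POU3F4 had 3 (-229, -126 and -85). At least 1 match lay in 32% of all 35116 windows of this length, at least 2 in 9.53% and at least 3 in 2.93%. None of the 9 other windows of members, which include 3 alternative starts of POU2F1 and 2 of POU6F1, held CCAAT. GC content of the class III windows was 80.8% (POU3F1), 69.2% (POU3F2), 62% (POU3F3) and 60% (POU3F4), against a median of 58% over all windows.

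The octamer itself, ATGCAAAT or its reverse complement, lay in 1 window of the members, at an internal start of POU2F1 (chr1:167328820-167329069, plus strand), and in 1.63% of all windows. This window is shown because it holds the element for which OCT1 and OCT2, the class II proteins, are named, in capitals.
POU2F1 internal start: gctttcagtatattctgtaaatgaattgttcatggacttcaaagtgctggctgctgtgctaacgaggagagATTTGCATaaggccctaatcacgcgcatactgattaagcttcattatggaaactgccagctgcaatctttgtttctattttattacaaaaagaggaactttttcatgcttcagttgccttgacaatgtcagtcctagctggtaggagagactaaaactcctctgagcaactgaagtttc
The match begins at -179 and has no overlap with another motif searched. TATAAA, the third motif searched on both strands, lay in the windows of POU4F3 (-30) and of 1 of 2 POU6F1 starts (-230), and in 10.7% of all windows. The motifs were chosen after the sequences had been read, and a match is a description of letters, not a site in use.

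The libraries held 30038114 to 38400092 expected counts, the estimated reads per gene, and 15349 to 16115 genes reached 1 TPM, a unit of level per transcript length within a library. Replicate 1 stood apart from the other replicates. CPM is counts scaled to the library total, and for log2 CPM that total was adjusted by TMM factors. The median absolute difference between libraries was taken over 17046 genes in log2 CPM. It was 0.28 between replicates 1 and 2 and 0.32 between replicates 1 and 3, against 0.16 between replicates 2 and 3. A part ran with transcript length: at an effective length of 8000 bases genes lay on average 0.42 below their own mean in replicate 1, and at 1000 bases 0.12 above it, and without this trend the differences were 0.23, 0.26 and 0.16. Neural progenitor genes were detected for 13 of 15 listed, where detected means at least 1 TPM in all 3 libraries, and the median of the list on the log2(TPM + 1) scale was 5.85 ± 0.38 (mean and SD over n = 3 libraries, as throughout). The filament genes VIM (1912 ± 194 TPM) and NES (181 ± 21.1 TPM) and the chromatin gene HMGA2 (387 ± 142 TPM) led the list, while PAX6 (0.13, 0.81 and 0.38 TPM in replicates 1, 2 and 3) and the NOTCH target HES5 (6.76, 0.72 and 5.66 TPM) were not detected. Of its 14 genes tested for spread, edgeR called 3, SOX3, HES5 and HES1. Over all protein-coding genes 62.2% were detected, and over all genes tested 1.55% were called for spread. These shares are the background for the counts of each list. All 11 mesenchyme and fibroblast genes were detected too, with sums of 706, 1450 and 1025 TPM in replicates 1, 2 and 3 and COL1A2 (278 ± 103 TPM), PRRX1 (206 ± 108 TPM) and LUM (166 ± 67.9 TPM) highest. The neural crest list had 10 of 11 genes detected, with sums of 413, 584 and 502 TPM and with TWIST1 (189 ± 48.6 TPM), TFAP2B (58.9 ± 7.14 TPM) and TFAP2A (56.7 ± 15.1 TPM) highest and RET (1.09 ± 0.369 TPM) not detected. In bulk RNA, fewer cells of a type and less RNA per cell cannot be told apart, so none of the levels below can be assigned to one of these cell types.

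Class III genes carried most of the members' level in TPM, and less of it in counts. Their summed level was 102.8, 57.5 and 67.5 TPM in replicates 1, 2 and 3, or 81.5%, 71.0% and 69.6% of the summed TPM of the 10 members. In expected counts, which are not scaled for length, class III summed to 10592, 5935 and 5397 and class II to 4249.8, 5537 and 5525 in replicates 1, 2 and 3. Class II thus had nearly as many counts as class III in replicate 2 and more in replicate 3. All 4 were detected. Each is a gene of 1 exon in its longest GENCODE 29 transcript on GRCh38.

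POU3F3 (ENSG00000198914.5, chromosome 2, 104855511 to 104858574, plus strand), also called BRN1 and known from upper-layer neurons of the cortex and from the kidney, had 57.9, 29.7 and 33.7 TPM in replicates 1, 2 and 3. In the same order its expected counts were 6229.7 (6076 to 6387), 3243 (3132 to 3357) and 2862 (2758 to 2969). The ranges in parentheses, here and later, are exact Poisson 95% intervals and cover counting error only. Replicate 1 was the highest and the other libraries lay close together. The mean, 40.4 ± 15.3 TPM, was the highest of the 10 members and stood at percentile 81.1 of all protein-coding genes. POU3F3 made up 56.3%, 51.6% and 49.9% of the class III TPM in replicates 1, 2 and 3.

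POU3F2 (ENSG00000184486.10, chromosome 6, 98834592 to 98839470, plus strand), or BRN2, which is used with other factors to turn fibroblasts into neurons, had 20.5, 9.99 and 13.4 TPM. Its expected counts were 2433 (interval 2337 to 2532), 1203 (1136 to 1273) and 1257 (1188 to 1328). Replicate 1 was again the highest, by 2.06 times over the lowest, and the mean was 14.6 ± 5.38 TPM. POU3F1 (ENSG00000185668.8, chromosome 1, 38044611 to 38046794, minus strand), known as OCT6 and for its part in Schwann cell myelination, had 14.0, 7.49 and 11.2 TPM. Its counts were 977 (917 to 1040), 528 (484 to 575) and 613 (565 to 664), and its mean was 10.9 ± 3.27 TPM. As in POU3F2 and POU3F3, replicate 1 was the highest library and replicate 2 the lowest.

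POU3F4 (ENSG00000196767.9, chromosome X, 83508261 to 83512127, plus strand), or BRN4, which acts in the mesenchyme around the inner ear and in the neural tube, had 10.4, 10.3 and 9.17 TPM. Its counts were 952 (892 to 1014), 961 (901 to 1024) and 664 (614 to 716). Its libraries lay close together, with a mean of 9.94 ± 0.670 TPM and a highest-to-lowest ratio of 1.13, against 1.87 for POU3F1, 2.06 for POU3F2 and 1.95 for POU3F3, a difference in spread that was not tested. The median of this ratio over detected protein-coding genes was 1.3, and the ratio of POU3F4 stood at percentile 19.1 among them. Its share of the class III TPM was 10.1%, 17.9% and 13.6% in replicates 1, 2 and 3, lowest where the class sum was highest. Without replicate 1 the mean was 31.7 TPM for POU3F3, 11.7 for POU3F2, 9.34 for POU3F1 and 9.74 for POU3F4.

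**Figure D1:**
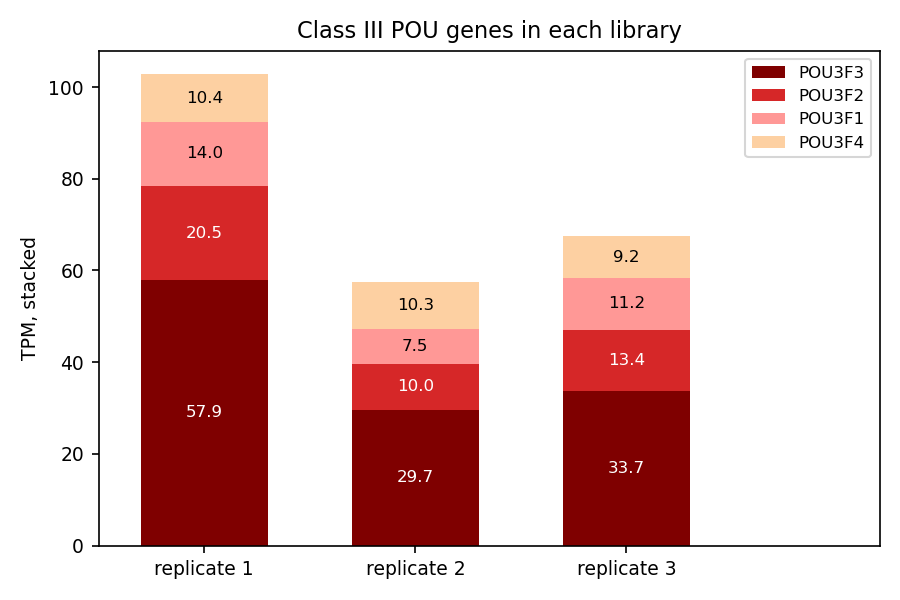
TPM of POU3F3, POU3F2, POU3F1 and POU3F4, stacked, in each of the 3 pNPC libraries, with each gene's TPM printed on its segment. POU3F3 is the largest segment in every library, and the POU3F4 segment stays near 10 TPM while the stack reaches 102.8 TPM in replicate 1, 57.5 in replicate 2 and 67.5 in replicate 3.

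Within a library, POU3F3 exceeded each of the other class III genes in all 3 libraries. The difference on the log2(TPM + 1) scale was 1.40 ± 0.12 for POU3F3 minus POU3F2, 1.78 ± 0.24 for POU3F3 minus POU3F1 and 1.86 ± 0.47 for POU3F3 minus POU3F4. POU3F2 also exceeded POU3F1 in every library, by 0.38 ± 0.14. POU3F2 minus POU3F4 was 0.92, -0.04 and 0.50 in replicates 1, 2 and 3, and POU3F1 minus POU3F4 was 0.40, -0.41 and 0.26, so neither order held in replicate 2. The mean of POU3F1 minus POU3F4, 0.08 ± 0.44, was -0.076 without replicate 1, -0.0057 without replicate 3 and -0.30 in CPM. Of 10 within-class pairs tested, 8 had the same sign in 3 of 3 libraries, each with p = 0.25 in an exact two-sided sign-flip test and 0.312 after Benjamini-Hochberg adjustment over the 10. That is the smallest p that 3 libraries allow, so no pair could pass 0.05. The pair POU3F2 and POU3F4 had an exact p = 0.5 (adjusted 0.556) and the pair POU3F1 and POU3F4 an exact p = 1.

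The class III genes share short stretches of sequence, which bears on how reads were divided among them. In GENCODE 29, POU3F1 and POU3F3 share 90 stretches of 31 identical bases, and 4.41% of the 31-base stretches of POU3F1 and 4.16% of those of POU3F3 occur in some other gene. For POU3F2 this share is 0.887%. In POU3F4 it is 24.1%, all of it with a gene model on the opposite strand (ENSG00000279437, 0.41, 0.25 and 0.25 TPM in replicates 1, 2 and 3). No source used here gives the strandedness of the libraries, so reads of a gene and of its antisense partner cannot be told apart. The deposited effective length of POU3F3 (4198 to 4239 bases) exceeded its longest GENCODE 29 transcript (3064 bases), and that of POU3F1 (2706 to 2749 bases) exceeded 2184 bases, so the gene models behind the deposited TPM are longer than those of GENCODE 29 for these genes.

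Most of the class II level in TPM came from POU2F1 (ENSG00000143190.23, chromosome 1, 167220829 to 167427345, plus strand), or OCT1, a broadly expressed activator of histone and small nuclear RNA genes. It had 16.1, 15.5 and 20.3 TPM in replicates 1, 2 and 3, from 3974 (3851 to 4100), 5294 (5152 to 5439) and 5280.0 (5139 to 5424) expected counts. Its mean of 17.3 ± 2.63 TPM was second among the members, and the ratio of its highest to its lowest library, 1.31, lay close to the protein-coding median. POU2F2 (ENSG00000028277.22, chromosome 19, 42086110 to 42196585, minus strand), or OCT2, best known from B lymphocytes and also present in neurons, had 2.98, 3.60 and 4.71 TPM. Its counts were 276 (244 to 311), 243 (213 to 276) and 245 (215 to 278), and its mean was 3.76 ± 0.876 TPM. POU2F1 minus POU2F2 was 2.10, 1.85 and 1.90 on the log2(TPM + 1) scale in replicates 1, 2 and 3. POU2F1 took 84.4%, 81.2% and 81.2% of the class II TPM.

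The class II values depend on which transcripts the reads were assigned to, since POU2F1 has 17 transcripts in GENCODE 29 and POU2F2 has 20. The deposited effective length of POU2F1, a mean over its transcripts weighted by their estimated use, was 9727 bases in replicate 1, against 13100 in replicate 2 and 12825 in replicate 3. For POU2F2 it was 3651 bases in replicate 1, against 2598 in replicate 2 and 2568 in replicate 3. The shift ran in opposite directions in these genes, toward shorter transcripts of POU2F1 and longer ones of POU2F2 in replicate 1. Before length scaling POU2F1 stood at 115, 138 and 176 CPM and POU2F2 at 7.96, 6.33 and 8.16 CPM in replicates 1, 2 and 3. POU2F2 was thus lowest in replicate 1 on the TPM scale and lowest in replicate 2 in CPM. Antisense genes POU2F2-AS1 (0, 0.05 and 0 TPM) and POU2F2-AS2 (0.66, 0.11 and 0.82 TPM) lie on the opposite strand of POU2F2.

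**Figure D2:**
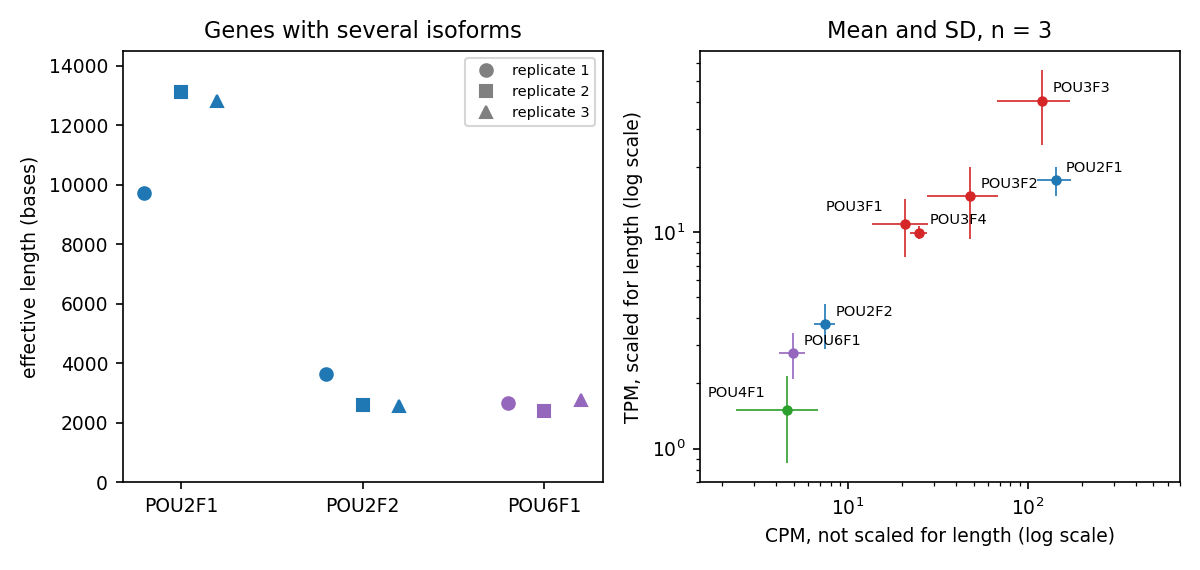
Left, deposited effective length in bases of POU2F1, POU2F2 and POU6F1 in each of the 3 libraries. Right, mean CPM (no length scaling) against mean TPM (scaled for length) of 8 POU genes on log axes, with bars of 1 SD over the 3 libraries. POU2F1 lies right of POU3F3 and below it, at 143 CPM and 17.3 TPM against 120 CPM and 40.4 TPM.

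Class IV genes were low, and none of the 3 was detected. POU4F1 (ENSG00000152192.8, chromosome 13, 78598362 to 78603560, minus strand), or BRN3A, a factor of sensory neurons, had 2.19, 0.88 and 1.48 TPM in replicates 1, 2 and 3, from 241 (212 to 273), 98 (79.6 to 119) and 129 (108 to 153) counts. It fell short of detection because replicate 2 lay under 1 TPM, and replicate 1 was again the highest. POU4F1 had the largest ratio of highest to lowest library among members over the floor of 3 counts, 2.49, and made up 98.6%, 91.7% and 96.1% of the class IV TPM. An antisense gene (ENSG00000271776, 0.03, 0 and 0.04 TPM) shares nearly all of the 27.2% of 31-base stretches of POU4F1 that occur elsewhere.

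POU4F3 (ENSG00000091010.6, chromosome 5, 146338839 to 146341722, plus strand), or BRN3C, a hair cell factor, had 2, 3 and 3 counts in replicates 1, 2 and 3, or 0.03, 0.05 and 0.06 TPM. POU4F2 (ENSG00000151615.3, chromosome 4, 146638893 to 146642474, plus strand), or BRN3B, a retinal ganglion cell factor, had 0, 2 and 0 counts, or 0, 0.03 and 0 TPM. At 3 counts, POU4F3 would have had up to 0.0640 TPM and POU4F2 up to 0.0514 TPM, in the library where this limit is highest. Neither gene exceeded 3 counts in any library. An overlapping protein-coding model on the strand of POU4F3 (ENSG00000275740) had 2.12, 5.32 and 4.87 TPM and shares 103 stretches of 31 bases with it.

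POU6F1 (ENSG00000184271.18, chromosome 12, 51186936 to 51217708, minus strand), also called BRN5 and found widely in the nervous system, had 2.04, 3.34 and 2.91 TPM, from 139 (117 to 164), 207 (180 to 237) and 164 (140 to 191) counts. Its mean was 2.76 ± 0.662 TPM. Replicate 1 was the lowest library, whereas POU3F1, POU3F2 and POU3F3 were highest there. The count intervals of POU6F1 in replicates 1 and 3 overlapped, and edgeR did not call its spread (unadjusted p = 0.765). The POU genes given next lie outside the member list and were not detected. The pluripotency factor POU5F1 had 0.11, 0.08 and 0.14 TPM in replicates 1, 2 and 3, its retrogene POU5F1B 0.39, 0.33 and 0.32 TPM, POU2F3, a factor of epidermis and tuft cells, 0.10, 0.04 and 0.30 TPM, and POU5F2 0, 0.01 and 0.04 TPM. The pituitary factor POU1F1 had 0 counts in each library, which allows up to 0.179 TPM at 3 counts.

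Of the 10 members, 7 (70%) were detected, against 62.2% of 19855 protein-coding genes. A share this near the background says nothing particular about the members. The median of log2(TPM + 1) was 2.77 ± 0.14 over the members and 2.86 ± 0.18 over all protein-coding genes. The median mean level of detected protein-coding genes was 21.0 TPM, and among the members POU3F3 alone exceeded it. By class, detection was 2 of 2 in class II, 4 of 4 in class III, 0 of 3 in class IV and 1 of 1 in class VI.

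The order by mean TPM was POU3F3, POU2F1, POU3F2, POU3F1, POU3F4, POU2F2, POU6F1, POU4F1, POU4F3 and POU4F2. Of the 9 pairs of neighbours in that order, 3 had ranges over the libraries that did not overlap: POU3F3 above POU2F1, POU3F4 above POU2F2, and POU4F1 above POU4F3. The ranges of the other 6 overlapped, along the run POU2F1, POU3F2, POU3F1 and POU3F4, along the run POU2F2, POU6F1 and POU4F1, and between POU4F3 and POU4F2. The ends of the first run did not overlap, nor did those of the second. With the genes ordered anew under each setting, 6 of 9 neighbours were apart in CPM, and in TPM 7 without replicate 1 and 6 without replicate 2. A range over fewer libraries cannot be wider, which favours separate ranges when a library is left out. Without length scaling POU2F1 came first at 143 ± 30.9 CPM, against 120 ± 52.2 CPM for POU3F3, and POU3F4 (24.9 ± 2.68 CPM) lay above POU3F1 (20.8 ± 7.23 CPM).

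**Figure D3:**
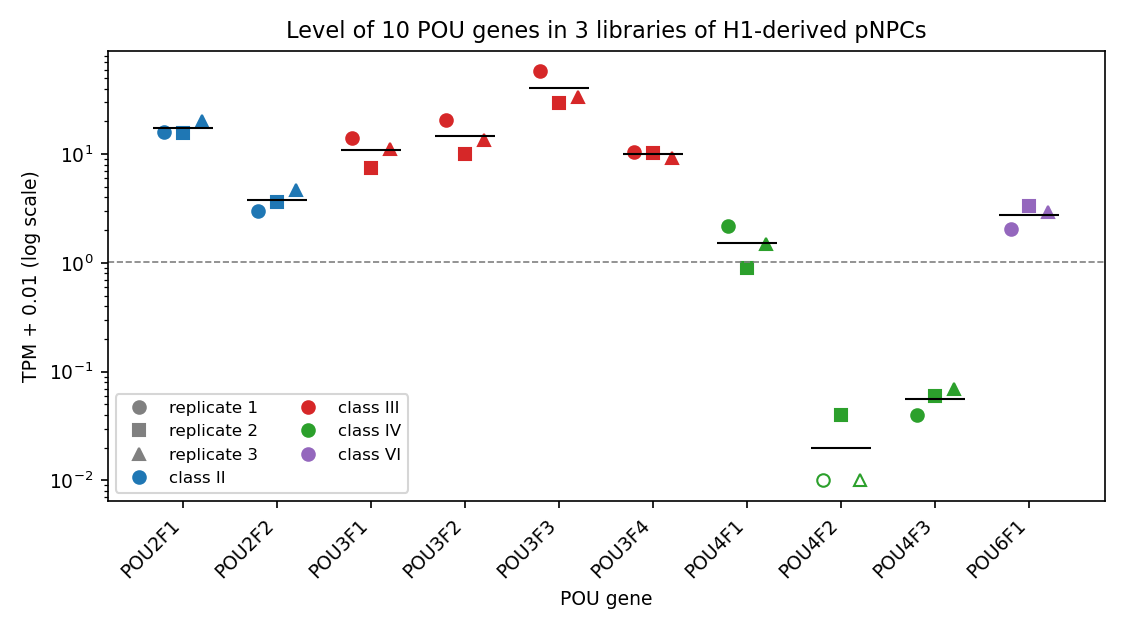
TPM plus 0.01 of the 10 POU genes in 3 pNPC libraries, on a log axis, with colours for the class, shapes for the replicate, open symbols for a value of 0, a line at each mean and a dashed line at 1 TPM. Class III and POU2F1 lie between 7.49 and 57.9 TPM, POU2F2, POU6F1 and POU4F1 between 0.88 and 4.71 TPM, and POU4F2 and POU4F3 at or below 0.06 TPM.

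POU3F1, POU3F2 and POU3F3 were highest in replicate 1 and lowest in replicate 2. The deviation of log2 CPM from the gene's mean was 0.68, -0.41 and -0.26 for POU3F3 in replicates 1, 2 and 3. For POU3F2 it was 0.65, -0.52 and -0.13, and for POU3F1 0.51, -0.53 and 0.02. POU4F1 showed a like course at its low level, with 0.72, -0.71 and 0.00, whereas POU3F4 varied little, with 0.16, 0.02 and -0.18. POU2F1 ran the other way, with -0.28, -0.02 and 0.30, and so did POU6F1, with -0.28, 0.14 and 0.14. POU2F2 lay at 0.11, -0.22 and 0.12. On the TPM scale 4 of the 7 detected members, all of class III, were highest in replicate 1, as were 25% of detected protein-coding genes, and 3 of 7 were highest in replicate 1 and lowest in replicate 2, as were 11% of those genes.

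The spread over libraries was compared with that of genes of like abundance by an intercept-only fit in edgeR with Benjamini-Hochberg adjustment over 17046 genes. It tested 8 members, POU4F2 and POU4F3 being too low, and called none of them at an adjusted p of 0.05, where 265 genes (1.55%) were called in all. At an unadjusted p under 0.05 it found 3 of the 8, against 7.6% of all genes tested. The edgeR fit gave POU3F3 an unadjusted value of 0.00461 (adjusted p = 0.168), POU3F2 one of 0.00608 (adjusted p = 0.200) and POU3F1 one of 0.0432 (adjusted p = 0.615). For the other 5 the unadjusted p in edgeR was 0.0963 for POU4F1 and at least 0.285 for POU2F1, POU2F2, POU3F4 and POU6F1. With dispersions and size factors from DESeq2 0 of the 8 were called and 4 had an unadjusted p under 0.05, POU4F1 being the addition.

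These calls depended on the length trend of the libraries. Once a smooth trend of log2 CPM on effective length was removed in each library, 2 of the 8 members passed edgeR's test, POU3F3 (adjusted p = 0.000185) and POU3F2 (adjusted p = 0.000537), against 1.73% of all genes. The deviations without the trend were 0.84, -0.49 and -0.35 for POU3F3 and 0.85, -0.61 and -0.24 for POU3F2 in replicates 1, 2 and 3. POU3F1 stayed at 0.55, -0.54 and 0.00 with an edgeR adjusted p of 0.294. POU2F1, the longest of the members, turned over: its deviations without the trend were 0.30, -0.22 and -0.07, since the trend at its length was -0.58 in replicate 1. With the trend kept and any 1 library left out, edgeR called none of the members and 95 to 117 genes in all.

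**Figure D4:**
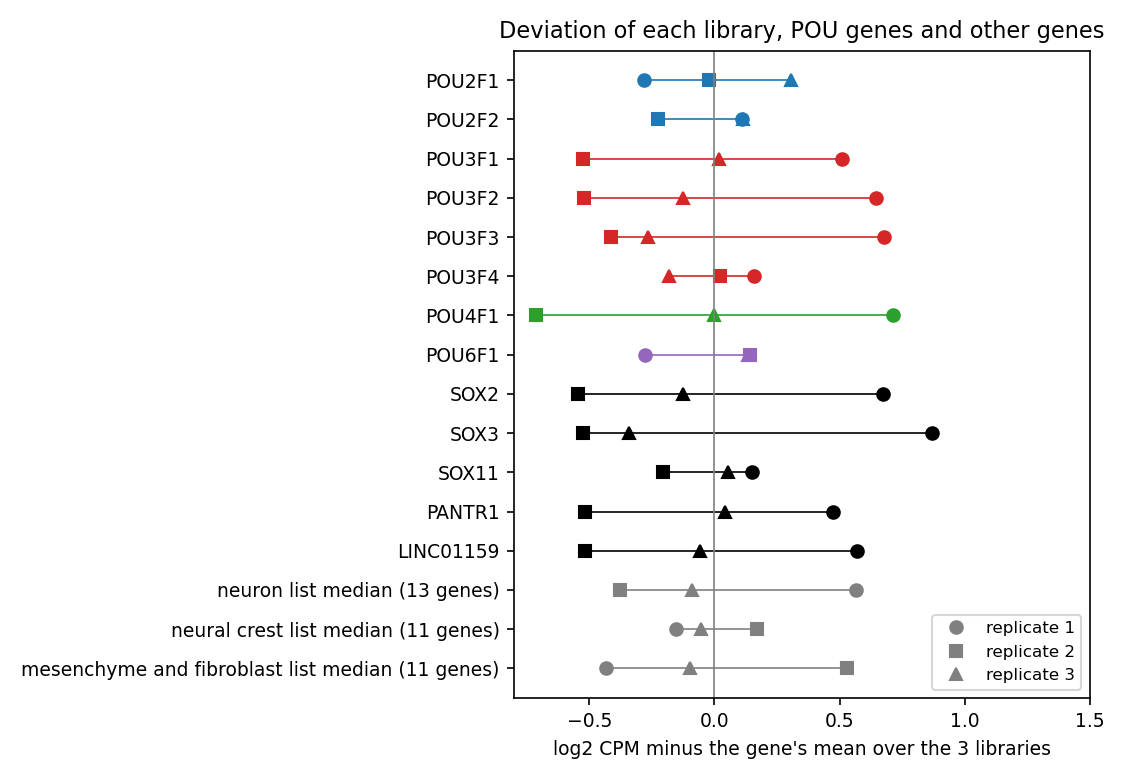
Deviation of log2 CPM from the mean over the 3 libraries, 1 symbol per library, for 8 POU genes, 3 SOX genes and 2 noncoding neighbours of POU3F3, and the median deviation over the genes tested of 3 marker lists. POU3F1, POU3F2, POU3F3, POU4F1, SOX2, SOX3 and the median of the neuron list are highest in replicate 1 and lowest in replicate 2. The median of the mesenchyme list has the reverse order at its ends. Single genes of a list can differ from its median.

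Marker lists of cell types also differed in level between the same libraries. Of 15 neuron genes 13 were detected, and their summed level was 1226, 764 and 696 TPM in replicates 1, 2 and 3, with median deviations of 0.57, -0.38 and -0.09. Of the 13 detected, 9 were highest in replicate 1 in TPM, as were 25% of detected protein-coding genes. MAP2 (31.33, 40.85 and 47.71 TPM), DCX (4.61, 3.28 and 6.96 TPM) and SNAP25 (2.16, 2.23 and 2.62 TPM) were highest in replicate 3. GAP43 (64.03, 68.14 and 47.23 TPM) was highest in replicate 2. TUBB3, a neuronal tubulin gene, stood at 375 ± 89.4 TPM, the neurofilament gene NEFM at 301 ± 163 TPM and the growth cone gene GAP43 at 59.8 ± 11.1 TPM, whereas the transporter and enzyme genes of mature neurons SLC17A6 (0.08 ± 0.0624 TPM) and GAD1 (0.35 ± 0.320 TPM) were not detected. Of the 13 neuron genes tested, 3 were called for spread by edgeR (STMN2, NEFM and ELAVL4). The mesenchyme list had median deviations of -0.43, 0.53 and -0.10, with 1 of 11 called (COL1A1), and the neural crest list -0.15, 0.17 and -0.05, with 0 of 11 called. The part of these cell types in the class III values was not tested.

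Of 7 SOX partners of class III factors, 7 were detected, against 62.2% of all protein-coding genes. Their sums were 318, 187 and 222 TPM in replicates 1, 2 and 3. SOX2 had 97.8, 46.3 and 63.4 TPM, SOX3 85.8, 36.1 and 42.0 TPM and SOX11 47.7, 40.7 and 49.8 TPM. SOX2 and SOX3, the progenitor factors that class III proteins are best known to bind with, were thus highest in the library where POU3F1, POU3F2 and POU3F3 were highest, and SOX11 was nearly level. The median deviation of the 7 was 0.67, -0.53 and -0.06, and edgeR called 2 for spread, SOX3 (adjusted p = 0.0139) and SOX21 (adjusted p = 1.67e-05), but not SOX2 (adjusted p = 0.136). Among the other neural targets and partners of class III factors 7 of 9 (77.8%) were detected and 0 of 7 tested were called. NES, whose neural enhancer is a classical site of class III and SOX binding, stood at 181 ± 21.1 TPM, the fatty acid binding protein gene FABP7, another such target, at 103 ± 31.3 TPM. NEUROD1 (0.09 ± 0.0346 TPM) and MYT1L (0.20 ± 0.159 TPM), which act in neurons after the progenitor stage, were not detected.

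A pair of noncoding genes flank POU3F3 on the minus strand of chromosome 2, PANTR1 (104807572 to 104853183) and LINC01159 (104865497 to 104872595). PANTR1 had 27.1, 14.8 and 21.0 TPM and LINC01159 13.8, 7.21 and 10.2 TPM in replicates 1, 2 and 3. Both were highest in replicate 1 and lowest in replicate 2, as POU3F3 was, on 195 to 378 counts a library, and edgeR called neither for spread (adjusted p = 1.00 for each). SOX2-OT, which overlaps SOX2, stood at 2.17, 2.29 and 2.92 TPM. These were the 3 detected among 7 noncoding neighbours analysed. POU2F2-AS1, not detected, had 0, 0.05 and 0 TPM.

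By the distance of deviations in log2 CPM over the 3 libraries, the protein-coding genes nearest to POU3F3 among 14016 compared were the adhesion molecule gene BCAM (distance 0.0289), the linker histone gene H1-10 (0.0405) and the tetraspanin gene TSPAN33 (0.0510). With 3 libraries many genes share such a course, and 17 lay within a distance of 0.1.

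Of 11 listed cofactors of POU proteins, 8 (72.7%) were detected, against 62.2% of all protein-coding genes. A share this near the background says nothing particular about these cofactors. Of 8 tested, 0 were called for spread by edgeR, against 1.55% of all genes tested. HCFC1, which encodes a host cell factor, stood at 53.5 ± 9.50 TPM. SNAPC5 and SNAPC2, subunits of the complex that POU2F1 recruits at small nuclear RNA genes, stood at 32.3 ± 1.18 and 23.8 ± 0.748 TPM. POU2AF1, the coactivator of class II factors in B lymphocytes, had 1, 0 and 0 counts in replicates 1, 2 and 3, and POU2AF2, the coactivator of POU2F3 in tuft cells, had 0, 1 and 1. POU2AF3, also not detected, was higher, at 0.57, 0.74 and 0.26 TPM. None of 8 B lymphocyte genes was detected, and IGHM and MS4A1 were at 0 counts throughout, which at 3 counts limits them to 0.112 and 0.104 TPM. The list as a whole was not at 0. CD79B (0.86, 1.77 and 0.70 TPM in replicates 1, 2 and 3) and CD79A (0.57, 0.64 and 0.51 TPM) were its highest genes.

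The tissue programmes in which single members are known to act were detected unevenly, beside 62.2% of all protein-coding genes. In the retinal ganglion cell and melanocyte lists, 60% and 62.5% were detected. Shares this near the background say nothing particular about these programmes. Spread was called for 1.55% of all genes tested. Of 17 genes of the sensory neuron programme of POU4F1, 5 were detected and 1 of 11 tested was called (ELAVL4, edgeR adjusted p = 0.00548). The placode gene EYA1 (18.8 ± 6.06 TPM) and the neuronal RNA-binding protein gene ELAVL4 (8.26, 2.03 and 5.06 TPM) were among the highest, while the proneural genes NEUROG2 (0.0567 ± 0.0814 TPM) and NEUROD1 were not detected. ELAVL4 was highest in replicate 1 and lowest in replicate 2, as POU4F1 was, whereas EYA1, at 12.5, 19.3 and 24.6 TPM, was lowest in replicate 1. The median deviations of the 11 genes tested, 0.14, 0.09 and -0.10 in log2 CPM, did not share the course of POU4F1. For POU4F2, 6 of 10 genes of the retinal ganglion cell programme were detected, with RBPMS (27.7 ± 4.10 TPM), EBF1 (5.06 ± 1.49 TPM) and ONECUT1 (5.01 ± 2.07 TPM) highest and the eye field gene SIX6 (0.0733 ± 0.0751 TPM) near 0. None of the 7 tested was called by edgeR. For POU4F3, 1 of 7 hair cell genes was detected, the myosin gene MYO6 (15.5 ± 1.93 TPM), and ATOH1 (0.107 ± 0.0643 TPM) and LHX3 (0.04 ± 0.04 TPM), which mark this lineage, were not, and 0 of 5 tested were called by edgeR.

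For the class III members, 8 of 10 genes of the Schwann cell programme were detected, led by GAP43 (59.8 ± 11.1 TPM), NAB2 (55.0 ± 10.3 TPM) and NAB1 (38.8 ± 14.2 TPM), which encode a growth cone protein and a pair of EGR cofactors. The myelin regulator EGR2 (0.31, 0.37 and 1.39 TPM in replicates 1, 2 and 3) and the myelin gene MBP (0.703 ± 0.219 TPM) were not detected, and EGR2 was the 1 of 10 called for spread (edgeR adjusted p = 0.0243), with replicate 3 the highest. None of 6 hypothalamic genes was detected, OTP having at most 1 count and SIM1 at most 4 counts in a library. In the melanocyte programme, in which POU3F2 is known from melanoma, 5 of 8 genes were detected and 2 of 6 tested were called by edgeR (PMEL and DCT). PMEL (44.6, 28.9 and 17.6 TPM), PAX3 (26.5 ± 4.18 TPM) and KIT (21.4 ± 1.26 TPM) were highest. The pigment enzyme genes TYR (1.71, 0.30 and 0.11 TPM) and TYRP1 (0.91, 1.63 and 0.17 TPM) were not detected, whereas DCT, another such gene, was (6.31, 2.76 and 1.66 TPM). PMEL and TYR were highest in replicate 1 and lowest in replicate 3, a different order from that of POU3F2. Of 10 pluripotency genes 4 were detected, with LIN28A (326 ± 117 TPM), DNMT3B (59.7 ± 3.39 TPM) and L1TD1 (54.5 ± 18.2 TPM) highest and PRDM14 and TDGF1 at 0 counts, which allows up to 0.136 and 0.211 TPM.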

How the data were processed

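Bulk RNA-seq of 3 wild-type pNPC replicates was analysed as 1 group, as the titles give it. Since no label ties the replicates to separate cultures, p-values reflect the spread of these samples alone, and that spread may be technical. Without order or role, the submitters' processing notes list RSEM 1.3.1, STAR 2.7.11a, Trim Galore 0.6.10 and build GRCh38. Annotation release and strandedness: not given in the sources used here. Each deposited table holds, per the file headers, an expected count, TPM and FPKM value and 2 lengths for each gene. The deposited expected counts are the estimated reads of a gene, not normalized, and 86.8% to 87.8% of them were whole within 0.005. The authors' TPM values are per effective length and sum to the same total in each library, while FPKM, also as deposited, served only in an alternative. Reads that fit several genes are divided among them in expected counts.

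Gene types and coordinates came from GENCODE 29, matched for 58261 identifiers (92.8%), and promoter windows from RefSeq. CPM was computed from expected counts over the library total. Log2 CPM, its deviations and the CPM alternatives for order and pairs used totals adjusted by TMM factors. Log2 CPM also had a small prior count added. Differences are of log2(TPM + 1), a pseudocount of 1, which understates differences of low genes. For the spread test, expected counts were rounded, scaled by TMM and filtered by filterByExpr in edgeR 4.0.16 (limma 3.58.1, R 4.3.3), and the residual deviance at the trended dispersion was read against chi-square at 2 degrees of freedom. The common biological coefficient of variation was 22.6%. This step was tested on simulated data, and DESeq2 1.42.0 gave an alternative. Other values used Python 3.11.15, numpy 2.4.6, pandas 2.3.3, scipy 1.17.1 and matplotlib 3.10.9. The 10 members and the 17 lists (157 genes) were chosen with earlier results of these data known. From each list the text names the 3 detected genes with the highest mean TPM and, where there are any, the 2 undetected genes with the lowest. Genes that edgeR called for spread, SOX21, POU2F2-AS2, POU2AF3, MAP2, DCX, SNAP25, CD79A and CD79B were named after their values were seen. Some genes that this rule would name are not reported here. The listed symbols LINC01158 and POU4F1-AS1 had no single match among the deposited gene symbols, so nothing was read under these names.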

Additional observations from a re-analysis of the deposited data

How the results depend on the processing

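Detected members numbered 7 and stayed between 5 and 8 with minimums of 0.5 and 5 TPM, with FPKM, and with any library left out. Neighbours in the order of levels with separate ranges numbered 3, but 6 in CPM without length scaling, and 3 to 7 with a library left out. The genes were ordered anew each time, and a range over fewer libraries cannot be wider. Pairs with 1 sign in all libraries numbered 8, and 5 once only pairs with a detected member were kept, which leaves fewer pairs. POU3F1 minus POU3F4 (0.08 ± 0.44) was -0.30 in CPM, and with a library left out it ran between -0.076 and 0.33. The other pairs kept their sign under every alternative run.

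The test of spread called 265 genes, between 266 and 332 under the other scalings, filters and dispersions, and 95 to 117 with a library left out, where fewer samples enter. Members called numbered 0, and 2 with the length trend removed (POU3F3 and POU3F2). Without replicate 1 the edgeR unadjusted p of POU3F3 was 0.447 and that of POU3F2 0.1. No paired comparison of conditions was possible because the labels give 1 group only. The within-class differences were paired by library. Depth limits POU4F2 and POU4F3, at 3 counts or fewer in each library, and all values rest on 3 libraries of 1 line.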
